A study of Mus musculus with 6 samples.

Results

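S100 proteins are small calcium-binding proteins of the EF-hand family that mostly act as dimers, inside the cell on cytoskeletal and membrane partners and, once released, as danger signals for other cells. S100a8 and S100a9 form the heterodimer calprotectin, an abundant cytosolic protein of neutrophils and blood monocytes and often used as a marker of myeloid cells newly arrived in a tissue. The other members described here are widely expressed: S100a4 binds nonmuscle myosin, S100a6 (calcyclin) binds Cacybp, S100a10 binds annexin A2 and has lost its own calcium binding, S100a11 binds annexin A1, S100a13 takes part in the release of interleukin-1 alpha and FGF1, and S100a1 is best known from muscle. The 8 genes S100a1, S100a4, S100a6, S100a8, S100a9, S100a10, S100a11 and S100a13 were taken by name, by a rule that uses no measured value but was set with earlier results of these data known, from the 20649 genes of the count matrix, which holds 16 genes with an S100 symbol.

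The cells came from CT26 tumors, a mouse colon carcinoma line grown under the skin of the right flank of BALB/c mice. The tumors had received 3 injections, on alternate days and directly into the tumor, of exosomes loaded either with an antisense oligonucleotide against Stat6 (exoASO-STAT6, 3 tumors) or with a scrambled one (exoASO-Scramble, 3 tumors), and were taken 24 h after the last. CD45+ cells were enriched by positive selection before droplet-based single-cell RNA-seq. The matrix holds 9235 cell barcodes with 6 different suffixes, 3 to 8, which are called libraries here, and no label ties a suffix to a tumor. Therefore exoASO-STAT6 and exoASO-Scramble tumors could not be compared, and no test between treatments was made. The libraries held between 11492757 and 33902084 unique molecular identifiers (UMIs, counts of captured RNA molecules), and 16 barcode sequences occurred in more than 1 library.

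The question addressed here is in which immune cells of these tumors each S100 gene was expressed. Barcodes were assigned to gates by marker transcripts, none of them an S100 gene. The neutrophil gate (G0s2 at 2 or more UMIs with Cxcr2 or Hdc) held 780 barcodes, the early monocyte gate (Vcan or Hp together with Csf1r) 2291, the Ly6c2 gate (2 or more UMIs) 1428, the C1q-high gate (C1qa, C1qb and C1qc at 60 or more per 10000 UMIs) 1896, the Mmp12-positive gate 467, the dendritic gate (Flt3) 128 and the lymphocyte gate (T, NK and B cell markers) 768. Dendritic and lymphocyte barcodes had at most 1 UMI of the macrophage genes Csf1r and Adgre1, and 1477 barcodes passed no gate. The marker lists hold genes that the gate rules used and, for neutrophils, S100a8 and S100a9. Of the markers left without these, 4 of 5 neutrophil, 4 of 5 macrophage, 8 of 8 dendritic, 4 of 5 early monocyte and 3 of 5 Mmp12 macrophage genes were highest in their own gate, but 0 of 5 Ly6c2 monocyte genes were, so that gate is called by its rule. All listed lymphocyte markers defined their gate, which leaves no separate check of it. The gates were not pure: 91.7% of neutrophil barcodes had more than 1 UMI of Csf1r and Adgre1, 38.5% had 2 or more lymphocyte UMIs, and 43.5% of all barcodes passed 2 or more gates and were counted in the first. Their part in the levels was not tested beyond the alternative gates.

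All 8 genes lie on chromosome 3. S100a1 (chr3:90511034-90514392, minus strand), S100a13 (chr3:90514435-90524581, plus), S100a4 (chr3:90603771-90606045, plus), S100a6 (chr3:90612882-90624181, plus), S100a8 (chr3:90668978-90670035, plus) and S100a9 (chr3:90692632-90695721, minus) follow each other, and S100a11 (chr3:93520488-93526287, plus) and S100a10 (chr3:93555080-93564643, plus) lie further along the chromosome (GENCODE gene models on GRCm38). For S100a8 and S100a9, whose levels moved together over the gates, the lower coordinate of S100a9 lies 22597 bases after the end of S100a8. Their upstream sequences are shown 5′ to 3′ on the strand of each gene (RefSeq promoter windows, GRCm38.p6), with letters that match a searched motif in capitals. The S100a8 stretch (chr3:90668821-90668977, plus strand) ends where the GENCODE gene begins, and the S100a9 stretch is chr3:90695722-90695971 on the minus strand.
S100a8: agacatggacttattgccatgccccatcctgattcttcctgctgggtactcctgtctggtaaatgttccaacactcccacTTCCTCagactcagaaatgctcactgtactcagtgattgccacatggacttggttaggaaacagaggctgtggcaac
S100a9: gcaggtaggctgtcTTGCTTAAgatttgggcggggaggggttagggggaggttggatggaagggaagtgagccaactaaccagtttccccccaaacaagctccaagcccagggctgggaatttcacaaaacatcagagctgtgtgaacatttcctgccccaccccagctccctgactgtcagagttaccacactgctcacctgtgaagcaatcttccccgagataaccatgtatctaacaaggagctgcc

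Motifs of 2 myeloid transcription factors were searched on both strands of the 250 bases before each RefSeq start, TTNNGCAA for C/EBP and GAGGAA for PU.1, 2 patterns that share no position in these windows. S100a8 had 2 PU.1 matches, 170 to 165 and 36 to 31 bases before the start, of which the first lies in the stretch shown, S100a9 had 1 C/EBP match 236 to 229 bases before it, and S100a11 had 1 PU.1 match 153 to 148 bases before it. Over all 32851 promoters of the table, 9.56% held the C/EBP letters and 23.3% the PU.1 letters. S100a1, S100a4, S100a6 and S100a13 held neither. The table has an entry for 7 of the 8 members, not for S100a10. A match says only that these letters occur.

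S100a1 and S100a13 start back to back on opposite strands, with 42 bases between the annotated genes (chr3:90514393-90514434, plus strand, with 1 CG pair in capitals). The stretch is shown because this closest pair of neighbours did not share its order of levels over the gates.
S100a1 and S100a13: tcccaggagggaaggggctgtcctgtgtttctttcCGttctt

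S100a8 and S100a9 marked the neutrophil gate in every library. Levels are given as CPM, the UMIs of a gene per 1000000 UMIs summed over the barcodes of a gate, with 95% exact Poisson intervals that cover counting error only. For S100a8, the neutrophil gate had 1289 CPM (1272 to 1305), the early monocyte gate 246 (241 to 251), the Ly6c2 gate 85.6, the Mmp12-positive gate 68.8, the C1q-high gate 50.04, the dendritic gate 46.6 and the lymphocyte gate 20.2. By library, suffix 3 to 8, S100a8 stood at 1670, 690, 1018, 1376, 1226 and 1431 CPM in neutrophil barcodes and at 72.7, 40.7, 38.8, 655, 291 and 221 CPM in early monocytes. Every neutrophil value lay above every early monocyte value, although the margin was small between the lowest of the former and the highest of the latter. The ratio between both gates was 5.24, and over the settings tried it ran from 2.58 with a barcode counted in every gate it passed to 12.3 with at most 1 macrophage UMI in neutrophil barcodes. The early monocyte gate was in turn above the Ly6c2 gate in 6 of 6 libraries, but in library 5 only by 38.83 against 38.75 CPM, within counting error. With a barcode counted in every gate it passed, these gates had 499 and 387 CPM, and over barcodes of exactly 1 gate 165 and 128 CPM.

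S100a9 had 2584 CPM in the neutrophil gate (2561 to 2607), against 220 in early monocytes, 97.2 in the Ly6c2 gate, 74.3 in the Mmp12-positive gate, 72.0 in the C1q-high gate, 64.7 in the dendritic gate and 23.4 in lymphocytes. Its neutrophil values by library were 2319, 1353, 1799, 2677, 2943 and 2821 CPM and its early monocyte values 58.0, 36.7, 47.5, 442, 321 and 243 CPM, again without overlap. The neutrophil level was 11.7 times the early monocyte level for S100a9, and over the settings tried it ran from 3.36 times with a barcode counted in every gate it passed to 30.1 times with at most 1 macrophage UMI in neutrophil barcodes. From the highest to the lowest gate the level ranged 111-fold for S100a9 and 63.8-fold for S100a8, sizes that depended on the gates and on library 8. With a barcode in every gate it passed they were 34.8-fold and 27.9-fold, the lowest over the settings tried, and without library 8 177-fold and 133-fold. The highest were 292-fold for S100a9, with stricter gates, and 185-fold for S100a8, over barcodes of exactly 1 gate. Below the early monocytes the order of the gates was not stable for S100a9: the early monocyte gate exceeded the Ly6c2 gate in 5 of 6 libraries and the Mmp12-positive gate exceeded the C1q-high gate in 3 of 6.

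**Figure D1:**
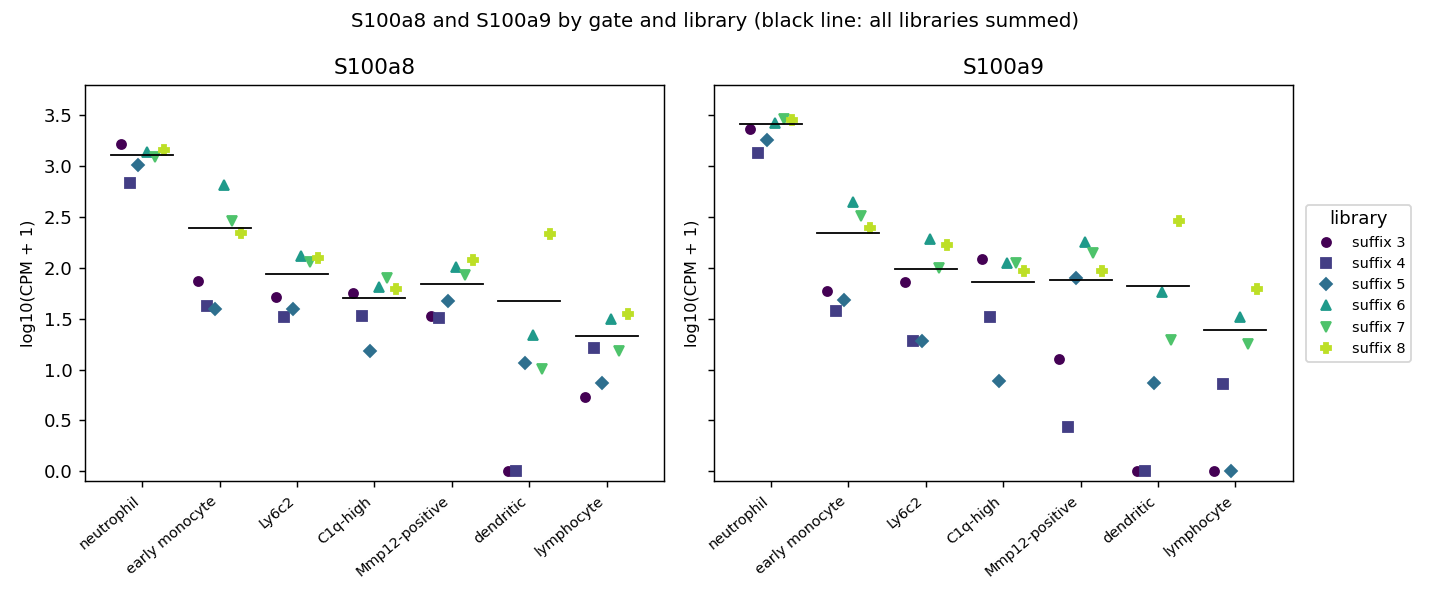
Levels of S100a8 and S100a9 as log10(CPM + 1) in 7 gates, one marker for each of the 6 libraries and a black line for all libraries summed. The neutrophil values of both genes lie above those of the other gates, while the early monocyte values spread from 38.8 to 655 CPM for S100a8 and libraries 6 to 8 exceed libraries 3 to 5.

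Neutrophil barcodes with few macrophage transcripts had higher levels of both genes. In the 65 neutrophil barcodes with at most 1 UMI of Csf1r and Adgre1 (median 7569 UMIs), S100a8 reached 3011 CPM and S100a9 6626 CPM, compared with 1238 and 2465 CPM in the 715 with more (median 21705 UMIs), and both genes were higher in the former in 6 of 6 libraries, of which some held as few as 3 such barcodes. S100a11 stood at 1135 against 686 CPM (higher in 5 of 6 libraries) and S100a6 at 3840 against 2859 CPM (5 of 6), while S100a1 was lower, at 25.0 against 50.6 CPM (higher in 1 of 6). This division of the gate was described after the values had been seen.

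Within early monocytes, most S100a8 UMIs lay in few barcodes when all libraries were summed. The 162 early monocyte barcodes with 10 or more S100a8 UMIs held 80.3% of the S100a8 UMIs of the gate, and the 138 with 10 or more S100a9 UMIs held 91.8% of those of S100a9. By library, 3 to 8, the S100a8 share was 57.7%, 30.8%, 20.6%, 90.9%, 75.6% and 77.0%, so that in libraries 4 and 5 most S100a8 UMIs lay outside these barcodes, while the S100a9 share was between 81.5% and 94.0%. An S100a8 UMI was found in 41.2% of early monocytes and an S100a9 UMI in 20.1%, compared with 6.9% and 7.4% of the lymphocyte barcodes, which should lack both genes (median depth 12988 and 6912.5 UMIs). After thinning every barcode to 1000 UMIs, the shares were 11.04% (9.79 to 12.4, exact binomial) and 6.50% (5.53 to 7.59) of early monocytes, 2.82% and 3.30% of C1q-high barcodes, and 1.71% (0.915 to 2.91) and 1.58% (0.820 to 2.75) of lymphocytes. Thinning left out 17 C1q-high and 9 lymphocyte barcodes as too shallow and no early monocytes. The early monocyte values were high in libraries 6, 7 and 8, where the neutrophil gate held 13.4%, 11.46% and 11.6% of the barcodes, and low in libraries 3, 4 and 5, where it held 7.73%, 4.44% and 1.95%. The part of neutrophil RNA in these values was not tested across libraries. Without library 6 the early monocyte level of S100a8 was 161 CPM.

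The 2 genes were not present in one ratio. S100a8 made up 33.3% (32.9 to 33.6) of the S100a8 and S100a9 UMIs of the neutrophil gate and 52.7% (52.0 to 53.4) of those of early monocytes. The share was 46.8% in the Ly6c2 gate, 41.0% in the C1q-high gate, 48.1% in the Mmp12-positive gate and 46.3% in lymphocytes. These summed shares varied by library, from 40.5% to 68.2% in the Ly6c2 gate and from 31.6% to 67.9% in the C1q-high gate. In the Mmp12-positive gate they ran from 35.7% to 94.9%, the latter on 37 S100a8 and 2 S100a9 UMIs. The Ly6c2 and C1q-high ratios were each above the neutrophil ratio in 5 of 6 libraries. By library, S100a8 UMIs per S100a9 UMI ran from 0.416 to 0.720 in neutrophils and from 0.817 to 1.48 in early monocytes, and the early monocyte ratio was the higher in 6 of 6 libraries.

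Early monocytes also included barcodes that held S100a8 almost alone, although libraries 4 and 5, with 0 such early monocytes, had the higher early monocyte ratio as well. Of 755 barcodes with 10 or more S100a8 UMIs, 74 had 0 or 1 S100a9 UMI, and 52 of these had none. They comprised 49 early monocyte, 9 Ly6c2, 9 ungated, 3 Mmp12-positive, 2 lymphocyte, 1 C1q-high and 1 neutrophil barcode, at 30.2% of the early monocytes with 10 or more S100a8 UMIs but 0.206% of such neutrophil barcodes. Libraries 6, 7 and 8 held 27, 24 and 19 of the 74, and libraries 3, 4 and 5 held 1, 2 and 1. Without library 6 there were 47, without the barcodes with 2 or more lymphocyte UMIs 67, and without the 5% of barcodes with the most UMIs in each library 68. This class was defined after the values had been seen and is given as a description.

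**Figure D2:**
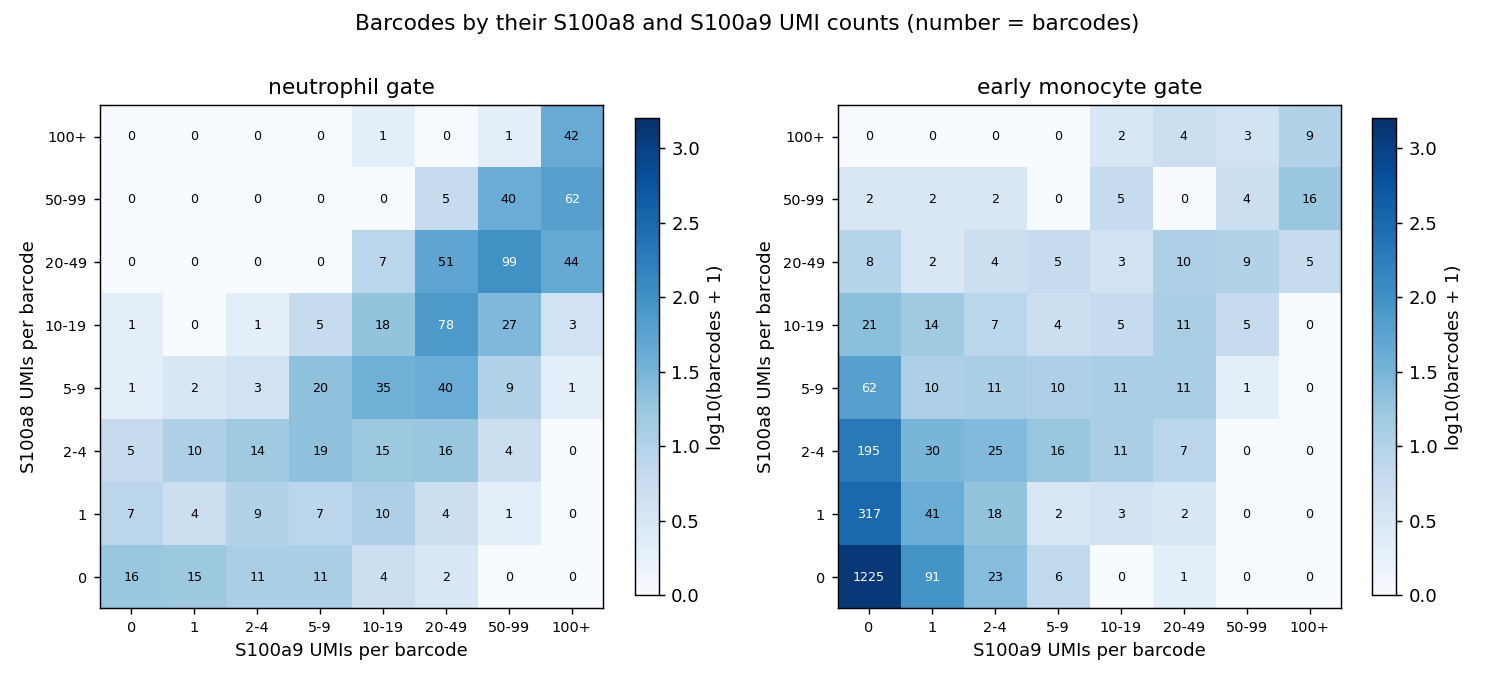
Barcodes of the neutrophil gate (left) and the early monocyte gate (right) by their UMI counts of S100a9 (horizontal) and S100a8 (vertical), in bins; the number in each square counts barcodes and the color is log10(barcodes + 1). Neutrophil barcodes follow a diagonal on the S100a9 side, whereas early monocytes include 49 barcodes with 10 or more S100a8 UMIs and 0 or 1 of S100a9.

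The 49 early monocytes with S100a8 but little S100a9 came from libraries 3, 6, 7 and 8 (1, 19, 19 and 10 barcodes), whereas other early monocytes came from all 6. The gates bear on the genes compared here, since Vcan helps define the early monocyte gate and barcodes with G0s2 and Cxcr2 went to the neutrophil gate first. Across the 49 such barcodes, the 113 with 10 or more S100a8 UMIs and more S100a9, and the 2129 with fewer than 10 S100a8 UMIs, Ly6c2, a surface protein of inflammatory monocytes, stood at 1180, 470 and 398 CPM. Chil3, a lectin of the chitinase family secreted by monocytes and macrophages, stood at 616, 183 and 127 CPM, and Vcan, the proteoglycan versican, at 335, 172 and 174 CPM. In contrast, G0s2 had 8.75, 83.1 and 7.35 CPM and the neutrophil chemokine receptor Cxcr2 2.19, 24.3 and 2.96 CPM. Retnlg had no UMI in the 49 barcodes (a count of 0 allows up to 3 UMIs) and 9.74 CPM in the 113. Lcn2, also highest in the neutrophil gate, went the other way, with 67.8, 45.9 and 4.47 CPM. It was found in 26.5% of the 49 barcodes. The neutrophil marker Csf3r had 65.6, 93.9 and 53.6 CPM, and Il1r2 had 28.4, 55.6 and 26.8 CPM. Slpi, a protease inhibitor, had 745, 219 and 215 CPM, and the primary granule protease Prtn3 had 38.3, 15.7 and 4.92 CPM. Single libraries weighed on these levels in the 49 barcodes, since without library 7 Slpi had 444 CPM, and without library 6 Chil3 had 370 and Prtn3 18.1 CPM. Among the S100 genes, S100a11 stood at 1440, 886 and 876 CPM and S100a6 at 4430, 3471 and 3421 CPM. S100a10 had 1492, 1157 and 1298 CPM. S100a4 had 1033, 763 and 984 CPM, with overlapping counting intervals in the 49 (969 to 1101) and the 2129 barcodes (974 to 994). Without library 7 S100a4 had 906 against 981 CPM in these groups. The intervals of all groups overlapped for S100a13, at 190, 171 and 167 CPM, and for S100a1, at 49.2, 54.3 and 49.2 CPM. Within libraries 6, 7 and 8, Ly6c2, Chil3, Vcan, Slpi, S100a4, S100a6 and S100a11 were higher in the barcodes with S100a8 and little S100a9 than in those with fewer than 10 S100a8 UMIs in 3 of 3 libraries, Prtn3, S100a1, S100a10 and S100a13 in 2 of 3, and G0s2 and Cxcr2 in 1 of 3. Ly6c2, Chil3, Vcan, Slpi, Prtn3, G0s2, Cxcr2, Retnlg, Lcn2, Csf3r and Il1r2 were chosen here after their values had been seen.

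In dendritic barcodes, S100a8 and S100a9 rested on a single barcode, which held 80.6% and 81.4% of their UMIs, and 216 and 291 CPM in library 8 compared with 0 UMIs of either gene in libraries 3 and 4. In lymphocytes, S100a9 was at 0 UMIs in libraries 3 and 5 and at 6.26, 31.6, 16.9 and 61.0 CPM in libraries 4, 6, 7 and 8. Whether these UMIs came from the cells themselves was not tested.

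S100a4, S100a6 and S100a10 were expressed in every gate and were highest in lymphocytes or early monocytes. S100a4 had 1229 CPM in lymphocytes (1204 to 1255), 969 in early monocytes, 784 in the Ly6c2 gate, 778 in the Mmp12-positive gate, 613 in neutrophils, 608 in the C1q-high gate and 345 in dendritic barcodes. By library, lymphocytes had 1026, 1069, 1097, 1079, 1624 and 1310 CPM of S100a4, and their values did not overlap with those of the neutrophil, Ly6c2, C1q-high or dendritic gates. Lymphocytes exceeded early monocytes in 4 of 6 libraries only, and early monocytes exceeded the Ly6c2 gate in 6 of 6. Library 6 had the lowest S100a4 value in the neutrophil, early monocyte, Ly6c2, C1q-high and Mmp12-positive gates, at 411, 670, 488, 329 and 353 CPM, but not in lymphocytes.

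S100a6 had 3448 CPM in early monocytes (3430 to 3467), 3072 in the Mmp12-positive gate, 2920 in the Ly6c2 gate, 2887 in neutrophils, 2658 in lymphocytes, 2141 in the C1q-high gate and 1426 in dendritic barcodes. The upper gates were close. Early monocytes were above the Mmp12-positive gate in 5 of 6 libraries, and the Ly6c2 gate was above neutrophils in 3 of 6. The C1q-high gate had 1628, 2156, 2309, 1692, 1979 and 2555 CPM against 3130, 3131, 3900, 2958, 3384 and 3876 CPM in early monocytes, which did not overlap. Its highest value did overlap with the neutrophil, Ly6c2 and Mmp12-positive gates, whose lowest values were 2362, 2360 and 2458 CPM. When only neutrophil barcodes with at most 1 UMI of Csf1r and Adgre1 were kept, neutrophils became the highest gate for S100a6.

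S100a10 was the most even of these genes outside the dendritic gate. Its levels were 1293 CPM in early monocytes (1282 to 1304), 1153 in the Mmp12-positive gate, 1048 in the Ly6c2 gate, 1043 in neutrophils, 1036 in lymphocytes and 976 in the C1q-high gate, and 517 in dendritic barcodes. By library the dendritic values were 440, 387, 415, 641, 681 and 682 CPM and the C1q-high values 842, 1011, 929, 745, 1007 and 1048 CPM, without overlap. Early monocytes were above the Mmp12-positive gate in 6 of 6 libraries, whereas the Ly6c2 gate, neutrophils and lymphocytes followed each other closely and their values overlapped. When the limit on Csf1r and Adgre1 was applied to lymphocytes only, the dendritic level of S100a10 was 792 CPM, that of S100a6 2176 and that of S100a4 598.

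S100a11 was highest in dendritic barcodes and lowest in C1q-high macrophages. The dendritic gate had 1757 CPM (1686 to 1829), early monocytes 890, the Ly6c2 gate 754, the Mmp12-positive gate 749, lymphocytes 722, neutrophils 699 and the C1q-high gate 413 (406 to 420). By library the dendritic values were 1900, 1622, 1348, 2177, 1869 and 2191 CPM, above every value of the other gates, and the C1q-high values were 338, 438, 288, 381, 449 and 458 CPM. Neutrophils exceeded the C1q-high gate in 6 of 6 libraries without overlap, at 1.69 times its level. In the 65 neutrophil barcodes with at most 1 UMI of Csf1r and Adgre1, S100a11 had 1135 CPM, above the early monocyte level, with 430 to 1465 CPM by library. The dendritic gate stayed the highest when the limit on Csf1r and Adgre1 was applied to lymphocytes only, but its level was then 1102 CPM.

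S100a1 and S100a13, the divergent neighbours, were highest in different gates and, in the summed counts, both lowest in dendritic barcodes. Among the gates, S100a1 was highest in those of macrophages, with 72.8 CPM in the C1q-high gate (70.0 to 75.8) and 70.4 in the Mmp12-positive gate. The Ly6c2 gate had 54.8 CPM, neutrophils 49.9, early monocytes 49.5, lymphocytes 38.8 and dendritic barcodes 33.1. The lymphocyte level combines groups that differed, as given below. The C1q-high values, 75.0, 78.6, 69.2, 70.9, 71.4 and 67.5 CPM, were above all early monocyte values, 46.0, 58.4, 51.6, 38.7, 52.2 and 48.4 CPM. No pair of neighbours in the order of the gates differed in the same direction in all 6 libraries, and the C1q-high and Mmp12-positive gates changed places in 3 of 17 settings. Dendritic barcodes were not the lowest for S100a1 in every setting. Lymphocytes had 32.6 against 38.8 CPM over barcodes of exactly 1 gate, and 38.8 against 46.3 CPM with the macrophage limit for lymphocytes only. Neutrophils with at most 1 macrophage UMI had 25.0 CPM against 33.1.

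S100a13 was highest in lymphocytes, at 256 CPM (244 to 268), with 168 in early monocytes, 163 in neutrophils, 162 in the Ly6c2 gate, 157 in the C1q-high gate, 152 in the Mmp12-positive gate and 117 in dendritic barcodes. By library, lymphocytes had 237, 266, 212, 257, 253 and 263 CPM, all above each value of the other gates, of which the highest was 200 CPM in the neutrophil gate of library 5. The other gates except the dendritic one lay between 152 and 168 CPM and their values overlapped. The C1q-high and Mmp12-positive gates were each above dendritic barcodes in 4 of 6 libraries only. Over 38 sums of a gate and a library, Pearson's r between S100a1 and S100a13 was -0.21, compared with 0.97 between S100a8 and S100a9, as a description over sums that share libraries.

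**Figure D3:**
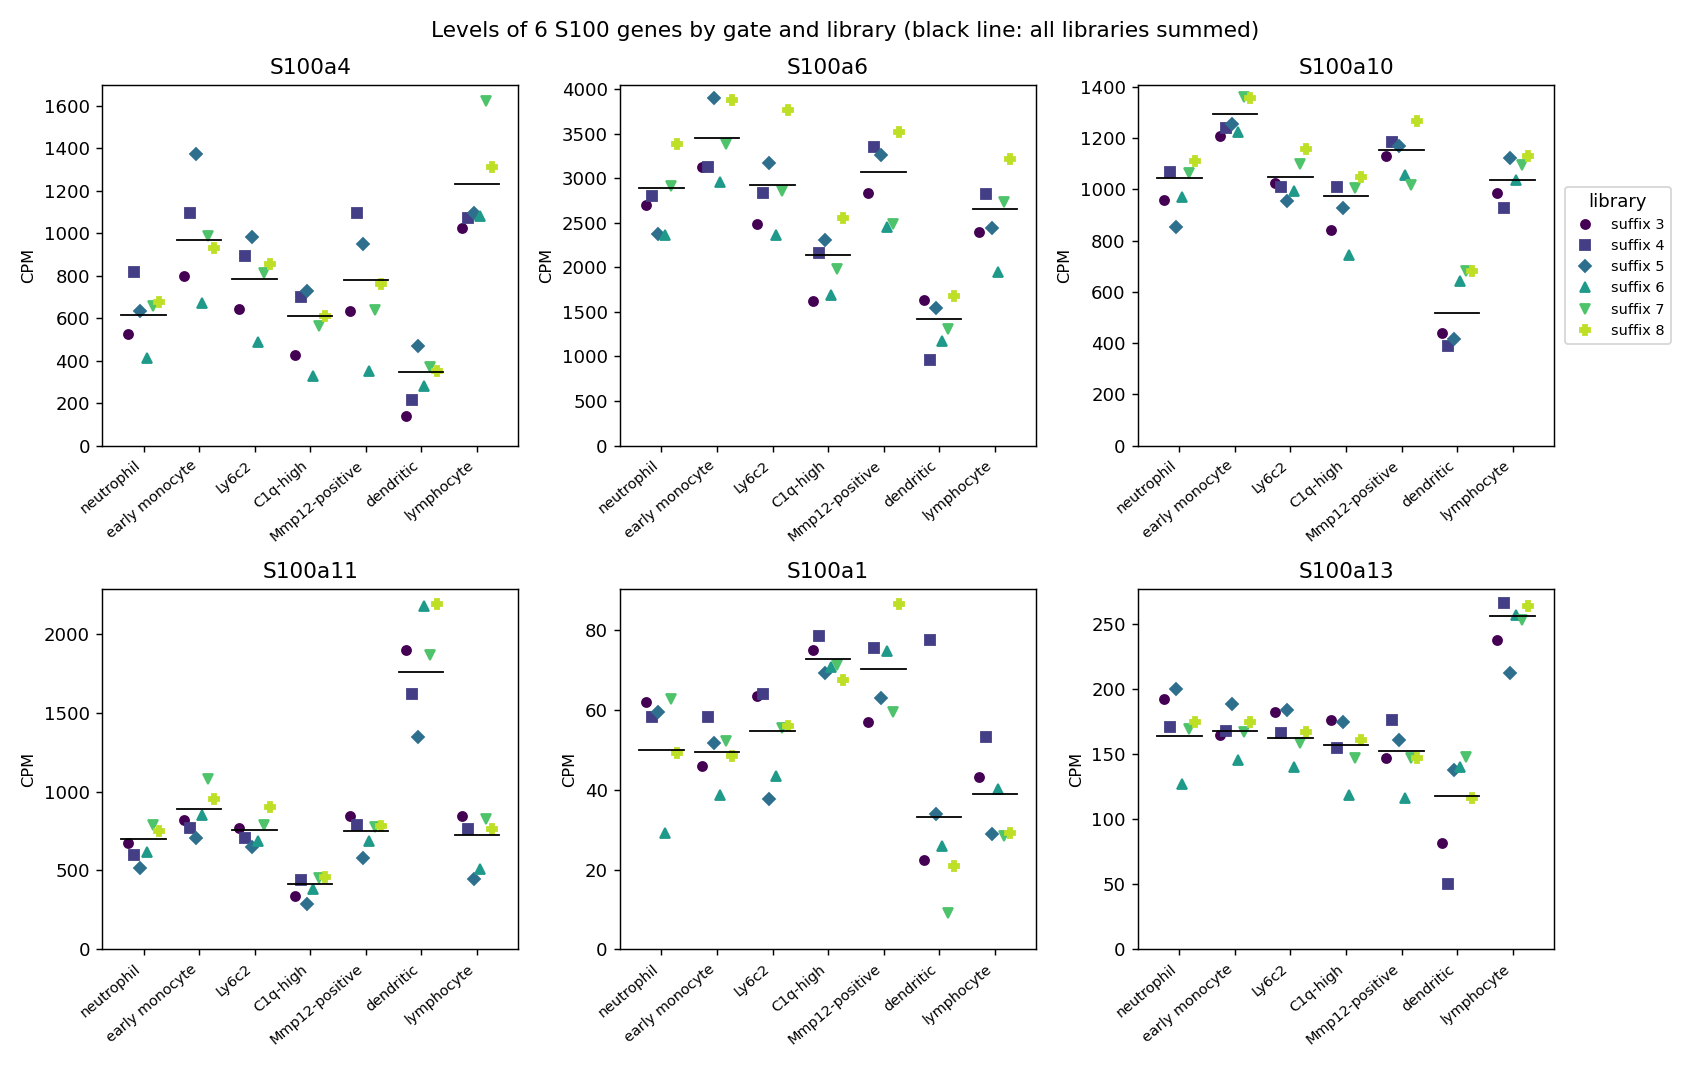
Levels in CPM of the other 6 S100 genes in 7 gates, one marker for each of the 6 libraries and a black line for all libraries summed, on linear axes from 0. S100a11 is highest in the dendritic gate and S100a13 in the lymphocyte gate in every library, while S100a10 lies lowest in the dendritic gate.

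The lymphocyte and dendritic gates were mixtures, and the S100 genes differed inside them. Barcodes with 2 or more UMIs of T cell markers (Cd3d, Cd3e and Cd3g, 359 barcodes), NK cell markers (Ncr1 and Klrb1c, 290) or B cell markers (Cd79a, Cd79b and Ms4a1, 38) and none of the others, except for at most 1 Cd3 UMI in NK marker barcodes, were set apart after the values had been seen. S100a1 had 67.0 CPM in NK marker barcodes (57.6 to 77.5) and 14.9 in T marker barcodes (10.96 to 19.7), a ratio of 4.50, and was higher in the former in 6 of 6 libraries. The NK interval covers the S100a1 levels of the C1q-high gate, 72.8 CPM, and the Mmp12-positive gate, 70.4 CPM. S100a4 had 1595 CPM in T marker barcodes, 1000 (962 to 1038) in NK and 260 (196 to 340) in B marker barcodes, with T above NK in 5 of 6 libraries and T above B in 6 of 6. S100a13 had 280, 240 and 57.9 CPM, S100a10 1159, 1026 and 376 CPM, and S100a6 2458, 2951 and 1138 CPM in the same order, and T and NK marker barcodes were above B marker barcodes in 6 of 6 libraries for each of these genes. B marker barcodes were few, between 2 and 14 in a library, and shallow, with a median of 3276 UMIs against 6510 and 7016.

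Among dendritic barcodes, S100a11 was highest in the 29 with the cDC1 markers Xcr1 or Clec9a, at 2769 CPM (2617 to 2928). The 35 barcodes with Ccr7 or Fscn1, genes of mature dendritic cells, had 1374 CPM (1250 to 1506), and the 15 with Siglech, a plasmacytoid dendritic cell marker, 296 (202 to 418), both lower than the cDC1 marker barcodes in 6 of 6 libraries. S100a4 and S100a10 differed the other way between the first of these groups, with 96.0 CPM of S100a4 in cDC1 marker barcodes against 342 in Ccr7 or Fscn1 barcodes (lower in 4 of 6 libraries) and 268 against 856 CPM of S100a10 (lower in 5 of 6). The 10 barcodes with Cd209a, a marker of other conventional dendritic cells, held 1347 CPM of S100a4, 4094 of S100a6 and 1551 of S100a11. These groups had between 0 and 12 barcodes in a library.

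**Figure D4:**
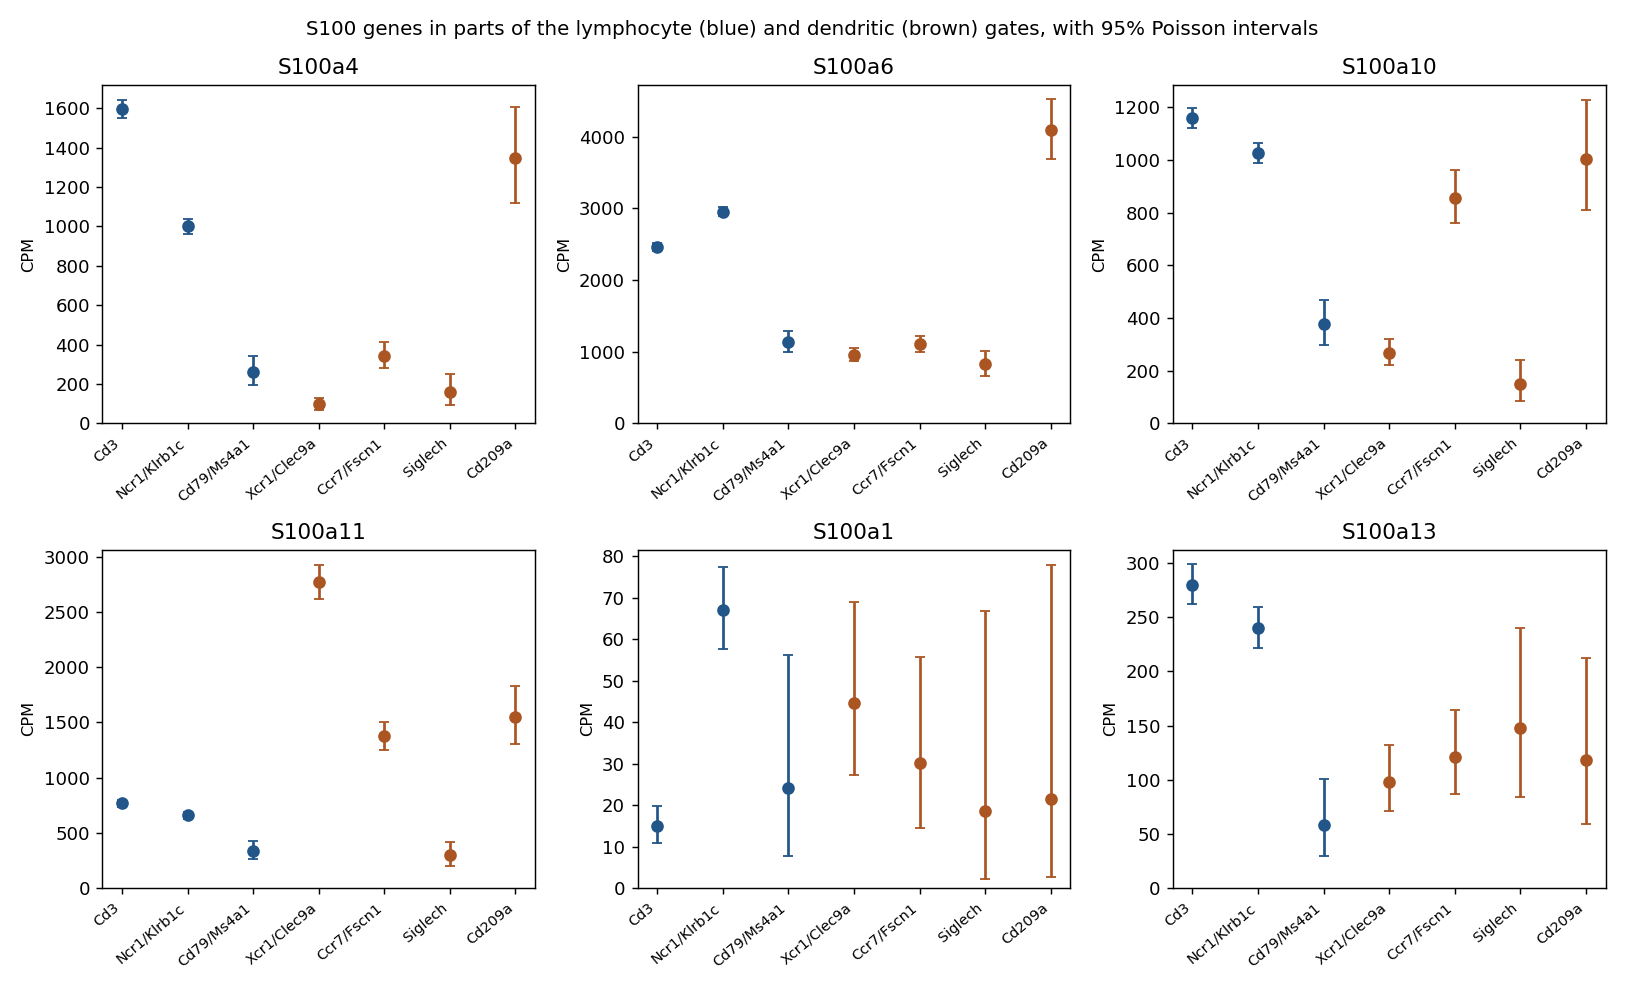
Levels in CPM of 6 S100 genes in barcodes of the lymphocyte gate (blue) and the dendritic gate (brown) grouped by the named markers, summed over libraries, with 95% Poisson intervals. S100a1 is low in Cd3 barcodes and higher in Ncr1/Klrb1c barcodes, and S100a11 is highest in Xcr1/Clec9a barcodes.

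Each gate was then compared with the C1q-high gate for all genes with 50 CPM or more in either gate, counting a gene as higher or lower when it differed 2-fold or more in the summed counts and in the same direction in all 6 libraries. In the neutrophil gate 2 of 8 members were higher, S100a8 and S100a9, where 3.77% of the 3236 genes were higher. In early monocytes 2 of 8 were higher, S100a8 and S100a11, against 3.14% of 3247 genes, and S100a11 was 1.77-fold higher, and so no longer called, with a barcode counted in every gate it passed. S100a8 fell below the limit in 0 of 17 settings, but its 4.91-fold was 3.27-fold without library 6 and 2.51-fold by the median of libraries. In libraries 3 and 4 it had 72.7 against 56.2 and 40.7 against 32.9 CPM, with overlapping counting intervals. The Ly6c2 gate (2.79% of 3230 genes higher) and the Mmp12-positive gate (3.1% of 3192) had no member that was 2-fold higher. In the dendritic gate S100a11 was higher (11.7% of 3579 genes) and S100a1 lower (14.2%). The S100a1 call rested on 44 UMIs in the dendritic gate, with 77.5 against 78.6 CPM in library 4, and was lost at 1.86-fold over barcodes of exactly 1 gate and at 1.58-fold with the macrophage limit for lymphocytes only. In lymphocytes S100a4 was higher (11.9% of 3601 genes) and S100a8 and S100a9 lower (19.6%). The S100a4 call lay at the limit, at 2.02-fold, and fell below it in 7 of 17 settings, among them without library 3 (1.99-fold), library 7 (1.82) or library 8 (1.99) and with a barcode in every gate (1.85). S100a8 fell below it in 2 of 17, at 1.98-fold without library 7 and 1.97-fold with stricter gates. In dendritic cells and lymphocytes the share of members was therefore close to that of all genes. The median log2 ratio of the 8 members to the C1q-high gate was 0.26 in neutrophils, 0.68 in early monocytes, 0.40 in the Ly6c2 gate, 0.30 in the Mmp12-positive gate, -0.50 in the dendritic gate and 0.20 in lymphocytes, and that of all genes compared was between -0.10 and 0.01.

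The early monocyte and C1q-high gates also differed in members below the 2-fold limit. S100a6 was 1.61 times, S100a4 1.59 times and S100a10 1.33 times as high in early monocytes, each in 6 of 6 libraries, and S100a1 was 0.68 times as high, lower in 6 of 6 libraries. S100a13 was 1.07 times as high, in 5 of 6, and S100a9, not called because 1 library went the other way, 3.06 times, in 5 of 6.

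The genes whose levels were most like each member were taken over the same 38 sums among 5125 genes. For S100a8 they were S100a9 (Pearson's r = 0.97), Cstdc4 (0.90), Stfa2l1 (0.90), Il1f9 (0.89) and Lcn2 (0.88), and S100a9 shared Cstdc4, Stfa2l1 and Il1f9 and had G0s2, a gene that defined the neutrophil gate, at 0.86. For S100a6 the list was led by S100a10 (0.80) and Svil (0.71), and also held S100a4 (0.63). For S100a4 it held Peak1 (0.78), S100a13 (0.77) and Hopx (0.76), for S100a11 Gpd2 (0.78), Ifitm1 (0.78) and Mir155hg (0.78), for S100a13 Gm45716 (0.88), Cr1l (0.86) and Hmgb3 (0.85), for S100a10, after S100a6, Hk1 (0.74) and Dok2 (0.74), and for S100a1 Syngr1 (0.80), Rcan1 (0.80) and Pmp22 (0.79). These sums share libraries and depth and are a description.

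Genes that work with the S100 proteins were examined as fixed lists. Of 8 other S100 genes, 7 were in the matrix and the highest, S100a16, had 273 UMIs in all barcodes, too few to compare. Annexins are membrane-binding proteins that pair with S100 dimers. Of 8 annexins, of which 7 could be compared in the Mmp12-positive and dendritic gates, none was 2-fold different from the C1q-high gate in the neutrophil, early monocyte, Ly6c2 or Mmp12-positive gate. In these gates few genes were called at all, with 0.309%, 0.647%, 0.557% and 1.54% lower beside the shares of higher genes given above. In lymphocytes Anxa3, Anxa4 and Anxa5 were lower, 3 of 8 where 19.6% of all genes were, and Anxa6 was higher, 1 of 8 where 11.9% were. In the dendritic gate Anxa3 and Anxa5 were lower, 2 of 7 where 14.2% of all genes were. Anxa2, the partner of S100a10, had 960 CPM in the Mmp12-positive gate, 888 in early monocytes, 721 in neutrophils, 681 in the Ly6c2 gate, 594 in the C1q-high gate, 673 in dendritic barcodes and 790 in lymphocytes. Of 7 receptors and receptor partners of S100a8 and S100a9, 3 were compared in dendritic barcodes and lymphocytes, and Cd14 and Cd36 were lower in both, where 14.2% and 19.6% of all genes were lower. Cd14 had 1228 CPM in the Mmp12-positive gate, 1171 in early monocytes, 1055 in neutrophils, 917 in the Ly6c2 gate and 816 in the C1q-high gate against 188 in dendritic barcodes and 107 in lymphocytes. Of 8 other binding partners, 5 were compared, and Plaur and Il1a were lower in lymphocytes (19.6% of all genes) and none was higher in any gate. Il1a, whose release involves S100a13, had 32.3 CPM in lymphocytes, the gate where S100a13 was highest. It had 79.0 CPM in dendritic barcodes, where S100a13 was lowest in the summed counts, and 213 to 355 CPM in the other gates.

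Of 12 neutrophil granule genes, none reached the level for a comparison in a myeloid gate. Retnlg had 39.0 CPM in the neutrophil gate and at most 3.01 in the others, Mmp8 28.5 CPM in neutrophils, 34.0 in early monocytes and 44.3 in the Mmp12-positive gate, and Ctsg 74.5 CPM in lymphocytes against 0.876 in neutrophils. The granule genes Mmp9, at 39.6 CPM, Lcn2, at 33.0, and Wfdc21, at 17.7, were also highest in the neutrophil gate, but Mmp9 also had 31.0 CPM in the Mmp12-positive and 22.7 in the Ly6c2 gate. The early monocyte levels of Mmp9, Lcn2 and Wfdc21 were 16.3, 8.95 and 7.71 CPM. These 3 genes were added here after their values had been seen. The rest of the list had 420 UMIs or fewer in all barcodes and went both ways. Camp and Ngp were highest in neutrophils, at 0.274 and 0.219 CPM. Prtn3 and Elane were highest in early monocytes, at 6.47 and 0.354 CPM, Ltf in lymphocytes, at 3.73, and Mpo in the Mmp12-positive gate, at 1.14.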

How the data were processed

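CD45+ cells of 6 CT26 tumors were profiled by droplet single-cell RNA-seq. The deposited file is a matrix of raw UMI counts made by the authors, with 20649 genes and 9235 barcodes in 6 libraries by suffix. The submitters' processing notes name Cell Ranger 1.2, Seurat 3.1.5, R 4.0.1 and mm10, without their role or order. No deposited annotation of cells was used. The members, gates and gene lists were chosen with earlier results of these data known. UMIs were summed per gate and per gate and library, and given as counts per 1000000 UMIs (CPM) (Python 3.11.15, numpy 2.4.6, scipy 1.17.1), with exact Poisson (levels) and Clopper-Pearson (shares) intervals at 95%. These cover counting error only. The libraries could not be assigned to treatments, so they are not replicates of a group and no p-value is given. No doublet caller was run, and barcodes were not filtered further. Named genes are the 8 members, list genes with 100 CPM or more in a gate or among the 3 with the widest range of log2(CPM + 10) in their list, and the 5 genes most correlated with each member over sums of 20 or more barcodes. Others are said to have been chosen after their values were seen. Alternatives were other gates, UMI limits, denominators, thinning to 1000 UMIs and leaving out each library. The comparison of neutrophil with C1q-high barcodes was tested on simulated data of 3019 genes with 200 changed 4-fold, and recovered 99% of them. The simulated counts had Poisson noise only, without differences between libraries or mixed gates. They therefore say nothing about calls near the 2-fold limit. Gene positions are from GENCODE M21 (GRCm38), whose role in the authors' counting is not given in the sources used here, and upstream sequences from RefSeq (GRCm38.p6).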

Additional observations from a re-analysis of the deposited data

How the results depend on the processing

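Of 136 alternative values of the 8 log2 ratios to the C1q-high gate, 133 had the sign of the reported value, and 17 moved by more than the SD over libraries. The 3 with another sign were those of S100a1 between the Mmp12-positive and C1q-high gates, which was -0.05 and not called. With a barcode counted in every gate it passes, the ratio was 2.77 rather than 4.69 for S100a8 and 2.88 rather than 5.16 for S100a9 in neutrophils, and in early monocytes 0.50 rather than 0.69 for S100a6, 0.43 rather than 0.67 for S100a4 and 0.82 rather than 1.11 for S100a11. By construction, neutrophil barcodes then also count in the C1q-high gate. With barcodes of exactly 1 gate it was 5.45 for S100a8 and 0.91 for S100a4, and with at most 1 macrophage UMI in neutrophils 5.91 for S100a8. As a mean over barcodes it was 0.91 for S100a6, 0.93 for S100a4, 0.61 rather than 0.41 for S100a10 and 1.46 for S100a11, and after thinning 0.88, 0.91, 0.67 and 1.45. Without barcodes with lymphocyte UMIs it was 1.35 for S100a11. The cause of these other shifts was not tested. Leaving out 1 library at a time gave 4.56 to 4.93 for S100a8, 4.94 to 5.32 for S100a9 and 0.67 to 0.74 for S100a13 in lymphocytes. The barcodes with S100a8 and little S100a9 numbered 74 as reported, 150 with limits of 5 S100a8 and 0 S100a9 UMIs, and 47 to 73 leaving out 1 library, limits that were all chosen after seeing the data. Of 952 levels recomputed, 86 moved by more than the SD over libraries, 32 of them without ribosomal and mitochondrial UMIs. The gate with the highest level was the same in all 17 settings for S100a4, S100a8, S100a9, S100a10, S100a11 and S100a13, in 16 for S100a6 and in 14 for S100a1. No paired analysis was possible because the columns carry no sample or replicate number that could pair treatments, while the gates were compared within each library. Depth limits what can be said of S100a8 and S100a9 in lymphocytes and of every member in the dendritic groups, which had between 0 and 12 barcodes in a library.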

Other observations

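The 1477 barcodes that passed no gate had a median of 5604 UMIs, and 54.7% of them had more than 1 UMI of Csf1r and Adgre1. They had 2939 CPM of S100a6, 1067 of S100a10, 822 of S100a4, 764 of S100a11, 156 of S100a13 and 46.9 of S100a1. S100a8 had 123 CPM (116 to 129) and S100a9 73.3 CPM (68.5 to 78.3) in them, and S100a8 made up 62.6% (60.6 to 64.6) of the UMIs of both genes. Single libraries moved that share, from 53.7% without library 8, against 54.8% in early monocytes, to 72.1% without library 6, against 48.0%. Leaving out each other library in turn gave 58.9% to 63.2%, against 52.7% to 54.3%. Without library 8 the S100a8 level of the ungated barcodes was 76.6 CPM. The ratio of S100a8 to S100a9 UMIs was above that of the neutrophil gate in 6 of 6 libraries and ran from 0.552 to 8.40. The highest ratio, in library 4, rested on 252 S100a8 UMIs, of which 1 barcode held 83.3%.

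The levels of 5 further genes were compared between the early monocytes with 10 or more S100a8 UMIs and 0 or 1 of S100a9 and those with fewer than 10 S100a8 UMIs. Ccl24, a chemokine for eosinophils, had 736 against 175 CPM, and Cxcl3, a neutrophil chemokine, 609 against 188 CPM. Serpinb2 had 140 against 18.5 CPM, but in 14.3% of the 49 barcodes only. Mmp8, a collagenase of neutrophil granules, had 118 against 30.1 CPM, and C1qa 1056 against 1793 CPM. Within libraries 6, 7 and 8, which held 48 of the 49 barcodes, Ccl24, Serpinb2 and Mmp8 were higher in 3 of 3, Cxcl3 was higher in 2 of 3 and C1qa in 0 of 3. Most of these differences leaned on a single library. Ccl24 had 1663 against 547 CPM in library 6 but 89.5 against 88.3 in library 7, and without library 6 it had 125 against 109 CPM. Cxcl3 had 1439 against 215 CPM in library 8 and 215 against 366 in library 6, and without library 8 it had 379 against 176 CPM. Without library 8, Mmp8 had 62.9 against 26.3 CPM. C1qa had 215 against 869 CPM in library 6, and without that library 1611 against 1955 CPM. These genes were among the 12 with the largest ratio, except C1qa, and were chosen after their values had been seen, so the values are a description of 49 barcodes from libraries whose treatment is not known.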
